A study of Mus musculus with 8 samples.

Results

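The genes described here are the 34 listed members of the ATF4 stress and amino acid supply program, of the 23183 genes counted in each library. They fall into 13 regulators and stress effectors, 8 amino acid transporters, 6 enzymes of serine synthesis and one-carbon metabolism, and 7 enzymes of proline, sulfur and other amino acid metabolism. The list was taken by gene symbol and was chosen with earlier results of these data known. Its members were then filtered on their read counts. A gene was kept with at least 10 counts in 4 or more of the 8 libraries, and the difference between treatments was not part of that filter. Of the 34 genes, 33 passed, each with at least 10 counts in all 8 libraries, so that none entered through 1 treatment only. Just inside the limit were Vldlr, with 13 to 29 counts per library, and Cth, with 16 to 27. The single gene outside it was Cbs, cystathionine beta-synthase of the transsulfuration pathway, with 1 to 5 counts per library, and it was not tested.

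The libraries came from group 2 innate lymphoid cells (ILC2s), lymphocytes of the lung that make type 2 cytokines such as IL-13, from C57BL/6 mice. The study's methods describe mice of both sexes aged 6 to 10 weeks that were given IL-33, after which the isolated ILC2s were cultured with IL-2, IL-7 and IL-33 at 10 ng/mL each. In 4 libraries the cells had received 5 µM Yoda1, a small-molecule agonist of the mechanosensitive cation channel Piezo1, and in 4 libraries 0.1% DMSO, the vehicle, both for 3 h. No gene was altered in any group, and all cells were cultured before treatment. It is not stated whether the libraries of a group came from separate mice or cultures. The p-values therefore measure the spread between these libraries, which may be technical. Total counts ran from 12438009 to 19534653 per library. In bulk RNA, fewer cells of a type and less RNA per cell cannot be told apart. The 10 ILC2 markers, Gata3 and Il1rl1 among them, summed to between 1.61e+04 and 1.67e+04 CPM (each library's counts scaled to the same total) in the DMSO libraries and to between 1.81e+04 and 1.85e+04 in the Yoda1 libraries, with 5 of the 10 higher and 1 lower. Most of this ILC2 sum came from Il13, Il2ra and Il5, so it reflects these genes more than Gata3 or Rora. Whether the number of ILC2s differed was not tested. The 7 markers of NK or CD8 T cells summed to 762 to 840 CPM with DMSO and 811 to 875 CPM with Yoda1. Of these 7 markers, 2 were higher. The calls among both sets of markers stand beside 6.04% of all tested genes called higher and 4.84% called lower. Most of the NK or CD8 T cell sum came from Prf1 and Gzma, while Ncr1, Klrb1c, Cd8a and Cd8b1 were low. Eomes lay between these levels, below Prf1 and Gzma but well above the low markers. Whether NK or CD8 T cells were present was not tested. The 5 T cell markers summed to 63.6 to 71.4 CPM with DMSO and 68.4 to 77.2 CPM with Yoda1. Markers of structural lung cells summed to 213 to 228 and 218 to 223 CPM, of which Pecam1 made up 220 CPM on average, and Sftpc and Scgb1a1 were at 0 in every library. Those of B cells (5.32 to 7.07 and 5.54 to 7.2 CPM, mostly Cd79b, with Pax5 at 0), macrophages (3.32 to 3.92 and 2.37 to 3.65 CPM, mostly Cd68, with C1qa at 0) and mast cells or basophils (3.62 to 5.24 and 4.84 to 5.54 CPM) were low. None of the markers of these 5 cell types with enough counts to test was called, and the part of any marker difference in the values below was not tested.

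ATF4 is a transcription factor whose mRNA carries short upstream reading frames. When a kinase such as PERK, GCN2, PKR or HRI phosphorylates the initiation factor eIF2, most translation slows but ATF4 is translated more, and together with C/EBP partners it turns on genes that import and make amino acids, the integrated stress response. The mTOR kinase complex can also raise ATF4 in growing lymphocytes, which links the same genes to protein synthesis. Because the study asked how Piezo1 activation affects mTOR signaling and translation in ILC2s, the question here was how the mRNA of this program stood 3 h after Yoda1.

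ATF4 with a C/EBP partner binds a composite DNA element whose core letters are TGATGNAA, where N is any base. Of the 34 members, 31 had a promoter in the RefSeq table (GRCm38.p6), a window from 250 bases before to 50 bases after the transcription start. The letters, read on both strands, were present in 24.3% of the 37 promoters of these members and in 3.97% of all 32851 promoters of the table. They stood in the promoters of 9 members, and the 8 of these with the largest change between treatments are printed here, 5′ to 3′ on the strand of the gene, because they carry the binding letters of the factor that heads the list. Capitals mark the element, which appears as its reverse complement where it lies on the other strand.
Slc7a11: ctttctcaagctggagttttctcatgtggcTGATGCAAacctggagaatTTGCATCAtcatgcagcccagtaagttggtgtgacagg
Trib3: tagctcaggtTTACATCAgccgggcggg
Nupr1: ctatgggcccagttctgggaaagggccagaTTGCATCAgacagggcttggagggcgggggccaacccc
Pycr1: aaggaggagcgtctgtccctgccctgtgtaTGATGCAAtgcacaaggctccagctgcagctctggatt
Chac1: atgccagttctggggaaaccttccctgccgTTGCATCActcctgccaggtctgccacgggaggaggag
Herpud1: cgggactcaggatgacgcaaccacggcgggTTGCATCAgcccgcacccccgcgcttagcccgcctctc
Asns: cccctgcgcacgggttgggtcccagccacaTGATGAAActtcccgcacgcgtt
Slc1a4: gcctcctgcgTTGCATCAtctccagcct

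The stretches lie at chr3:50443623-50443709 (Slc7a11, minus strand), chr2:152344029-152344056 (Trib3, minus), chr7:126625543-126625610 (Nupr1, minus), chr11:120643814-120643881 (Pycr1, minus), chr2:119351019-119351086 (Chac1, plus), chr8:94386287-94386354 (Herpud1, plus), chr6:7693210-7693262 (Asns, minus) and chr11:20332700-20332727 (Slc1a4, minus). Slc7a11 was the single member with 2 matches, which begin 66 and 47 bases before the start and face each other. In Nupr1, Pycr1 and Herpud1 the match begins 110, 103 and 112 bases before the start, and in Asns 23 bases before it. The match in Trib3 lies after the RefSeq start, from base 15 to base 22, but before the GENCODE M21 start of the gene at position 152344032, and that in Slc1a4 spans the start itself. The ninth promoter was that of Vldlr. A match describes these letters only, and a promoter without one may be bound elsewhere.

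**Figure D1:**
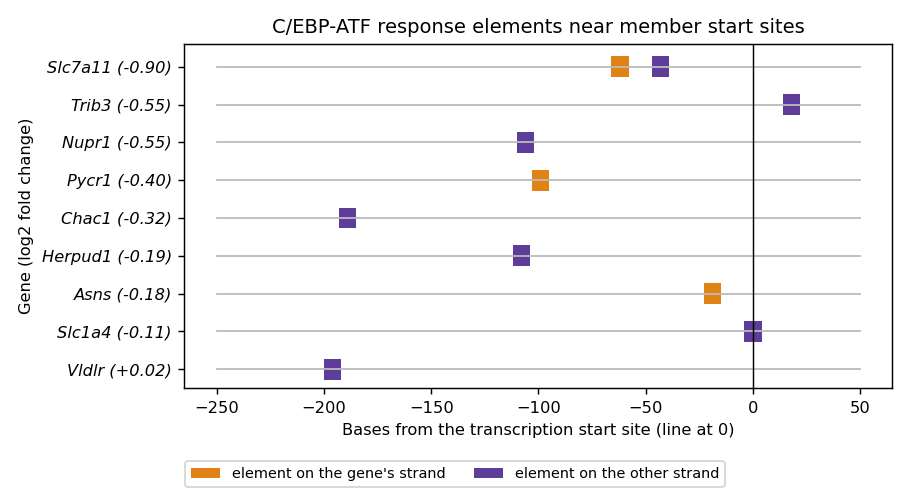
Position of the TGATGNAA letters in the 9 member promoters that hold them, in bases from the transcription start, with the log2 fold change of each gene between Yoda1 and DMSO in brackets. Slc7a11, at the top, has 2 matches within 66 bases of the start, and the Trib3 match lies after the RefSeq start used here.

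After 3 h of Yoda1, more genes of the program were lower than higher. Of the 33 tested members, 11 fell and 2 rose at an adjusted p under 0.05 in edgeR's quasi-likelihood test, fitted over all 12239 genes with enough counts. The genes that fell are Slc7a11, Trib3, Nupr1, Stc2, Slc7a5, Gpt2, Phgdh, Herpud1, Asns, Atf4 and Aldh18a1. The genes that rose are Slc38a2 and Ppp1r15a. The 11 lower genes are 33.3% of the tested members, against 4.84% of all genes tested, and the 2 higher genes are 6.06%, against 6.04% of all genes. Because the list was chosen with earlier results of these data known, these shares describe it and do not test it. Over all genes 739 were higher and 592 lower, and this split turned to 505 and 958 with upper-quartile factors and to 553 and 809 with scaling by library size, while the members stayed at 2 higher and were at 16 and 14 lower. The median log2 fold change of the tested members was -0.11, with a range from -0.90 to 0.45, beside a median of -0.0053 over all genes, and 26 of the 33 members (78.8%) lay below 0, beside 51.6% of all genes. Read by library, 12 members had every Yoda1 value under every DMSO value, where 7.05% of all genes did, and 2 had every Yoda1 value above, where 8.44% of all genes did.

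**Figure D2:**
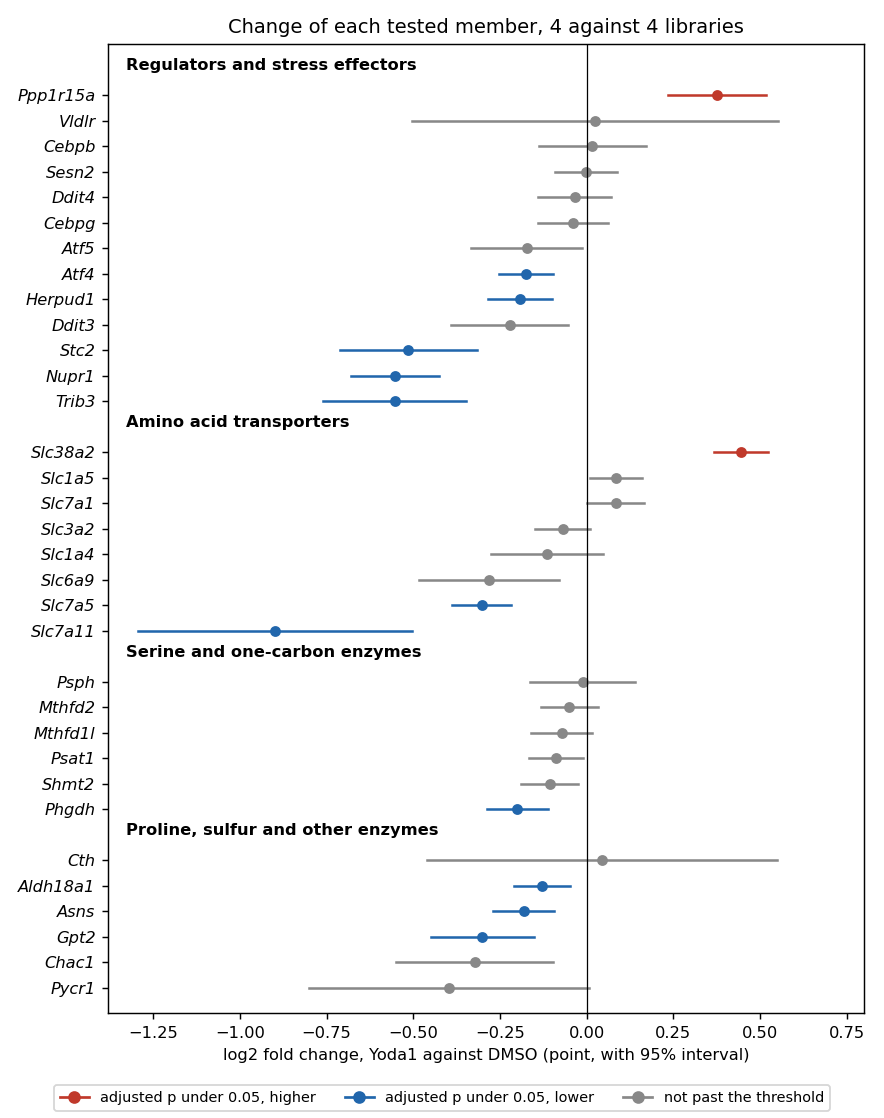
Log2 fold change of each tested member, Yoda1 against DMSO, with its 95% interval, grouped by role. Blue points passed the test as lower, red as higher, and the 2 red points are Ppp1r15a at 0.38 and Slc38a2 at 0.45.

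The largest fall was that of Slc7a11, at 0.536 of the DMSO level, and it stood 34th among the falls of all 12239 genes. Trib3, Nupr1 and Stc2 reached 0.681 to 0.700 of their DMSO levels, and the other genes that fell kept 0.811 or more. Within a treatment, the 26 members with at least 100 counts in every library had a standard deviation of log2 CPM between 0.0173 and 0.197, with a median of 0.0608.

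**Figure D3:**
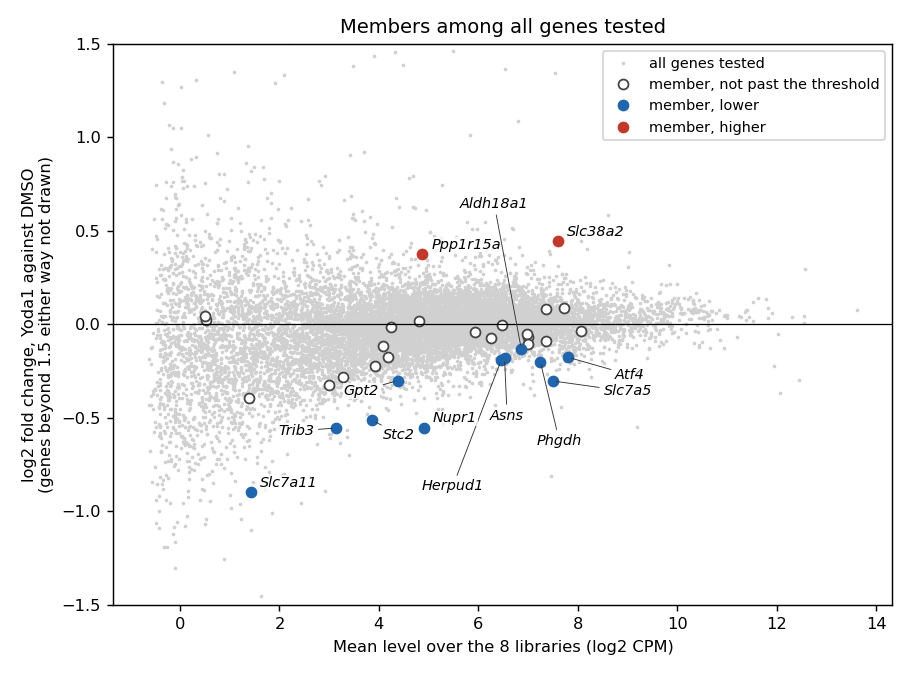
Log2 fold change (Yoda1 against DMSO) against mean level (log2 CPM over the 8 libraries) for the 12239 tested genes in gray and the 33 tested members as circles. The blue members that fell run from the low-level Slc7a11 at -0.90 to Aldh18a1 at -0.13, and the red Slc38a2 at 0.45 stands above them at a high level.

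Among the regulators, the head of the program itself fell. Atf4 had 248, 240.1, 230.0 and 229.9 CPM in the 4 DMSO libraries and 203, 203, 213 and 220.1 CPM in the 4 Yoda1 libraries. Every DMSO library was above every Yoda1 library, and the gap between the nearest libraries was small beside the level. The log2 fold change was -0.18 with an SE of 0.038 (edgeR adjusted p = 0.00224). Per kilobase of exon Atf4 mRNA was second only to Ddit4 on the list, at 100.5 CPM per kb with DMSO and 88.9 with Yoda1. ATF4 activity depends largely on translation, and protein was not measured in these libraries.

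The 4 stress effectors downstream of ATF4 that fell had estimates from -0.19 to -0.55, beside -0.18 for Atf4, and the differences between genes were not tested. Trib3, a pseudokinase that restrains AKT and ATF4, had 10.6, 10.7, 9.40 and 10.1 CPM with DMSO and 6.94, 6.39, 6.97 and 7.51 CPM with Yoda1. Its log2 fold change was -0.55 with an SE of 0.101 (edgeR adjusted p = 0.000329), and the groups stood clear of each other. Nupr1, a small chromatin protein induced by stress and starvation, had 37.7, 35.3, 34.3 and 34.15 CPM with DMSO and 22.9, 23.0, 26.4 and 24.3 CPM with Yoda1. The Nupr1 values formed 2 tight sets, with a log2 fold change of -0.55, an SE of 0.062 and an edgeR adjusted p of 2.15e-07. Stc2, which encodes the secreted glycoprotein stanniocalcin 2, had 16.65, 17.1, 14.8 and 19.7 CPM with DMSO and 10.6, 12.4, 14.2 and 10.75 CPM with Yoda1. Its groups came close, with 14.8 against 14.2, but did not meet, and the log2 fold change was -0.51 with an SE of 0.096 (edgeR adjusted p = 0.000537). Herpud1, a membrane protein of the machinery that removes misfolded proteins from the endoplasmic reticulum, had 102, 91.5, 90.3 and 90.2 CPM with DMSO and 84.9, 78.2, 83.75 and 80.7 CPM with Yoda1. One DMSO library was higher than the other 3, yet even the lowest was above every Yoda1 library, and the log2 fold change was -0.19 with an SE of 0.045 (edgeR adjusted p = 0.00503).

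Ppp1r15a went the other way. It encodes GADD34, the subunit that brings protein phosphatase 1 to phosphorylated eIF2 and so ends the integrated stress response. Ppp1r15a had 26.4, 26.8, 23.3 and 25.2 CPM with DMSO and 37.8, 30.9, 29.8 and 33.95 CPM with Yoda1. All 4 Yoda1 libraries were above all 4 DMSO libraries, 1.30-fold on average, with a log2 fold change of 0.38, an SE of 0.070 and an edgeR adjusted p of 0.000421. The transcript shares 12 exon bases with Tulp2 on the opposite strand, and the strand setting of the counting is not given in the sources used here.

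The other 7 regulators did not pass the test. Ddit3 encodes CHOP, the transcription factor that ties prolonged stress to cell death. It had 17.7, 16.5, 14.6 and 15.7 CPM with DMSO and 13.3, 13.1, 13.95 and 14.9 CPM with Yoda1. The ranges overlapped by the lowest DMSO and the highest Yoda1 library, and the log2 fold change of -0.22 (95% interval -0.39 to -0.053) had an edgeR adjusted p of 0.0826. Atf5, a close relative of ATF4 under the same kind of translational control, had 17.5 to 20.3 CPM with DMSO and 14.6 to 18.1 CPM with Yoda1, and its log2 fold change of -0.17 had an edgeR adjusted p of 0.162. Exons of Ddit3 and Atf5 overlap genes on the opposite strand, Mars for Ddit3 and Nup62 and Il4i1 for Atf5, and reads of such partners cannot be told apart without a strand setting.

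The stress-induced inhibitors of mTOR complex 1 did not pass the test. Ddit4, which encodes REDD1, had the highest level of the list per kilobase of exon, at 153.8 CPM per kb with DMSO and 150.4 with Yoda1, and its log2 fold change was -0.034 (95% interval -0.14 to 0.071). Sesn2, the leucine-binding inhibitor Sestrin 2, had a log2 fold change of -0.0017, with an interval from -0.091 to 0.087. Neither interval reached the Atf4 point estimate of -0.18, but that of Ddit4 overlapped the Atf4 interval of -0.25 to -0.098. The difference between these genes and Atf4 was not tested. The dimer partners Cebpb and Cebpg gave 0.017 (95% interval -0.14 to 0.17) and -0.039 (95% interval -0.14 to 0.063), and 20.7% of the exon bases of Cebpb overlap Tmem189 on the opposite strand. Vldlr, a lipoprotein receptor induced by ATF4, was near the lower limit of detection, and its interval from -0.50 to 0.55 leaves a change of up to that size in either direction possible at this depth.

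**Figure D4:**
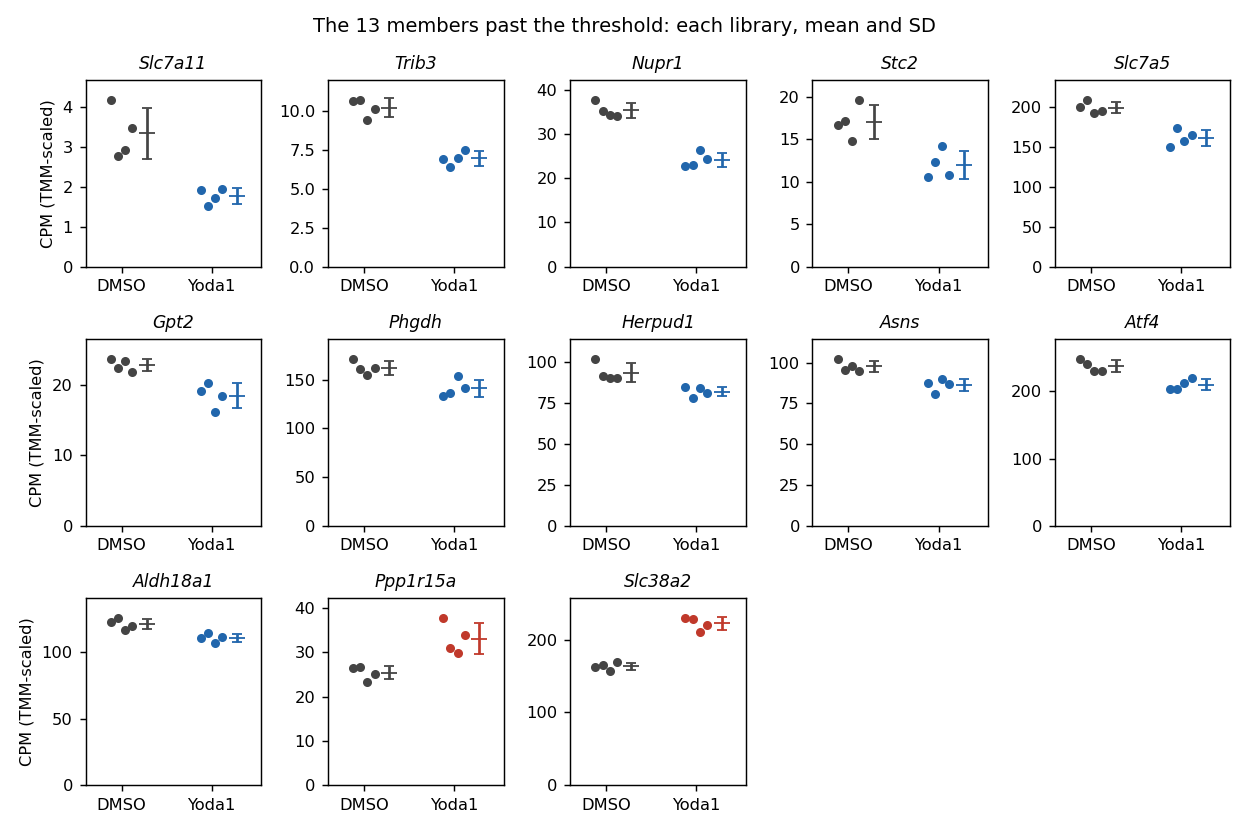
Level in CPM (TMM-scaled, axes from 0) of the 13 members that passed the test, with 1 point per library and the mean with its SD beside the points, for 4 DMSO and 4 Yoda1 libraries. The groups do not overlap in any of the 13 panels, and Ppp1r15a and Slc38a2, in red, are the panels with the higher Yoda1 values.

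The amino acid transporters did not move as a block. Slc38a2 rose, Slc7a11 and Slc7a5 fell, and the remaining 5 did not pass the test, so that the median log2 fold change of the 8 was -0.091. Slc38a2 (chr15:96687392-96699730, minus strand, GENCODE M21) encodes SNAT2, the sodium-coupled carrier for glutamine, alanine and other small neutral amino acids. It had 163, 165, 157 and 169.5 CPM with DMSO and 229.9, 229, 211 and 221 CPM with Yoda1. The lowest Yoda1 library was well above the highest DMSO library. At 1.36-fold, with a log2 fold change of 0.45, an SE of 0.038 and an edgeR adjusted p of 8.96e-10, Slc38a2 had the smallest adjusted p of the list.

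Slc7a11 (chr3:49892526-50443614, minus strand) encodes xCT, the exchanger that brings in cystine for glutathione synthesis and releases glutamate. Its counts were 67, 51, 46 and 47 in the DMSO libraries and 24, 25, 23 and 38 in the Yoda1 libraries, or 4.19, 2.79, 2.94 and 3.47 CPM against 1.94, 1.52, 1.725 and 1.95 CPM. Every DMSO library was above every Yoda1 library at a level where counting error is large, and the log2 fold change of -0.90 had an SE of 0.194, a 95% interval from -1.30 to -0.50 and an edgeR adjusted p of 0.0022. Of the 9223 bases of its longest transcript, 373 were at least 95% identical to the alpha-tubulin genes Tuba1a, Tuba1b and Tuba1c, so that reads from those abundant mRNAs may be counted here. Those tubulin genes had log2 fold changes of 0.08 for Tuba1a, -0.04 for Tuba1b and 0.03 for Tuba1c and did not pass the test. The Slc7a11 promoter is the one with the paired elements printed above.

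Slc7a5 (chr8:121881150-121907694, minus strand) encodes LAT1, the carrier of leucine and other large neutral amino acids, which works as a heterodimer with CD98 heavy chain, the product of Slc3a2. Slc7a5 had 199.7, 209, 193 and 196 CPM with DMSO and 149.8, 173, 158 and 165 CPM with Yoda1. The highest Yoda1 library stayed below the lowest DMSO library, and the log2 fold change was -0.30 with an SE of 0.042 (edgeR adjusted p = 6.25e-06). Its partner Slc3a2 had 134, 129.5, 129 and 134 CPM with DMSO and 122, 120.5, 128 and 129 CPM with Yoda1. Those groups overlapped near 129 CPM, and the log2 fold change of -0.069 (95% interval -0.15 to 0.0095) had an edgeR adjusted p of 0.267. The ratio of the CPM of the 2 subunits, Slc7a5 to Slc3a2, chosen after the values were seen and given without a test, was 1.49, 1.62, 1.5 and 1.47 in the DMSO libraries and 1.23, 1.44, 1.23 and 1.28 in the Yoda1 libraries.

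Of the transporters that did not pass the test, Slc6a9, the glycine carrier GlyT1, had the largest estimate. It had 10.8, 11.2, 9.59 and 10.1 CPM with DMSO and 7.83, 9.68, 8.85 and 7.97 CPM with Yoda1. A single pair of libraries overlapped, and the log2 fold change of -0.28 (95% interval -0.48 to -0.078) had an edgeR adjusted p of 0.0661, for a gene with 27.8% of its exon bases shared with Ccdc24 on the opposite strand. Slc1a4, the neutral amino acid carrier ASCT1, had a log2 fold change of -0.11 (95% interval -0.28 to 0.048). The cationic amino acid carrier Slc7a1, or CAT1, and the glutamine carrier Slc1a5, or ASCT2, had positive estimates of 0.083 and 0.085, with edgeR adjusted p of 0.198 and 0.135. Per kilobase of exon, Slc7a5 with 53.8 CPM per kb and Slc1a5 with 49.1 CPM per kb were the most abundant carriers in the DMSO libraries, and Slc7a11, with 0.241 CPM per kb, was the least.

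The 6 enzymes of serine synthesis and one-carbon metabolism all had estimates below 0, with a median of -0.079, and 1 of them passed the test. Phgdh, phosphoglycerate dehydrogenase, takes the first step from glycolysis to serine. It had 171, 161, 154 and 162 CPM with DMSO and 133, 136, 153 and 141 CPM with Yoda1. The groups came within 1 CPM of each other without overlap (154.2 against 153.3 CPM), and the log2 fold change was -0.20 with an SE of 0.043 (edgeR adjusted p = 0.00206). The mouse genome holds 9 processed pseudogenes that are 95.33% to 98.75% identical to parts of its longest transcript. The aligned parts cover 277 to 1608 of its 1893 bases. The count of Phgdh is uncertain to the extent that reads were split among these copies.

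The following steps of the serine pathway did not pass the test, and their difference from Phgdh was not tested. Psat1, the aminotransferase after Phgdh, had a log2 fold change of -0.088 with an edgeR adjusted p of 0.145. Psph, the phosphatase that releases serine, had a log2 fold change of -0.012 (95% interval -0.16 to 0.14). Of the exon bases of Psph, 10.4% overlap Cct6a on the opposite strand. Cct6a held 38384 counts over all libraries, against 2357 for Psph. Shmt2, which turns serine into glycine in mitochondria and charges folate, had 129 to 137 CPM with DMSO and 117 to 129.5 CPM with Yoda1, and its log2 fold change of -0.11 had an edgeR adjusted p of 0.0866. Mthfd2 and Mthfd1l, the mitochondrial folate enzymes that carry the one-carbon unit on to formate, had -0.050 and -0.071, with edgeR adjusted p of 0.477 and 0.314. For Mthfd1l the libraries did not overlap, with 75.2, 75.4, 79.9 and 80.6 CPM against 75, 74.9, 71.5 and 74.4 CPM, but the estimate was within 2 SE of 0 (SE 0.043).

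The remaining enzymes held 3 genes that fell and none that rose. Asns, asparagine synthetase, a standard readout of ATF4, had 102, 95.8, 98.15 and 94.6 CPM with DMSO and 87.3, 81.0, 90.3 and 86.6 CPM with Yoda1. All DMSO libraries lay above all Yoda1 libraries, and the log2 fold change was -0.18 with an SE of 0.043 (edgeR adjusted p = 0.0054), close to that of Atf4. Gpt2, the mitochondrial alanine aminotransferase, had 23.7, 22.3, 23.3 and 21.8 CPM with DMSO and 19.1, 20.2, 16.1 and 18.5 CPM with Yoda1. Its libraries were also separate, with a log2 fold change of -0.30, an SE of 0.073 and an edgeR adjusted p of 0.00658.

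Aldh18a1, which makes the precursor of proline, had 123, 126, 117 and 119 CPM with DMSO and 111, 114, 107 and 111 CPM with Yoda1. Its groups did not overlap, but among the members that passed the test it was the nearest to the threshold, with a log2 fold change of -0.13, an SE of 0.039 and an edgeR adjusted p of 0.0309. That call was lost with DESeq2 (adjusted p = 0.0514), and also when DMSO replicate 2 (edgeR adjusted p = 0.119) or Yoda1 replicate 1, 3 or 4 (edgeR adjusted p = 0.0705, 0.0959 and 0.0782) was left out.

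Chac1, which breaks down glutathione and is a sensitive target of ATF4 and CHOP, had 9.83, 9.04, 7.93 and 7.69 CPM with DMSO and 7.91, 6.51, 6.82 and 6.635 CPM with Yoda1. The highest Yoda1 library reached into the DMSO range, and the log2 fold change of -0.32 (95% interval -0.55 to -0.097) had an edgeR adjusted p of 0.0572, just outside the threshold. Pycr1, which completes proline synthesis, had 28 to 63 counts per library and a log2 fold change of -0.40, with an interval from -0.80 to 0.0083. Cth, cystathionine gamma-lyase of the transsulfuration pathway, had 0.043 (95% interval -0.46 to 0.55). With so few counts a change smaller than this interval in either direction was not detectable in Cth, and Cbs, at 1 to 5 counts, gave no comparison.

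**Figure D5:**
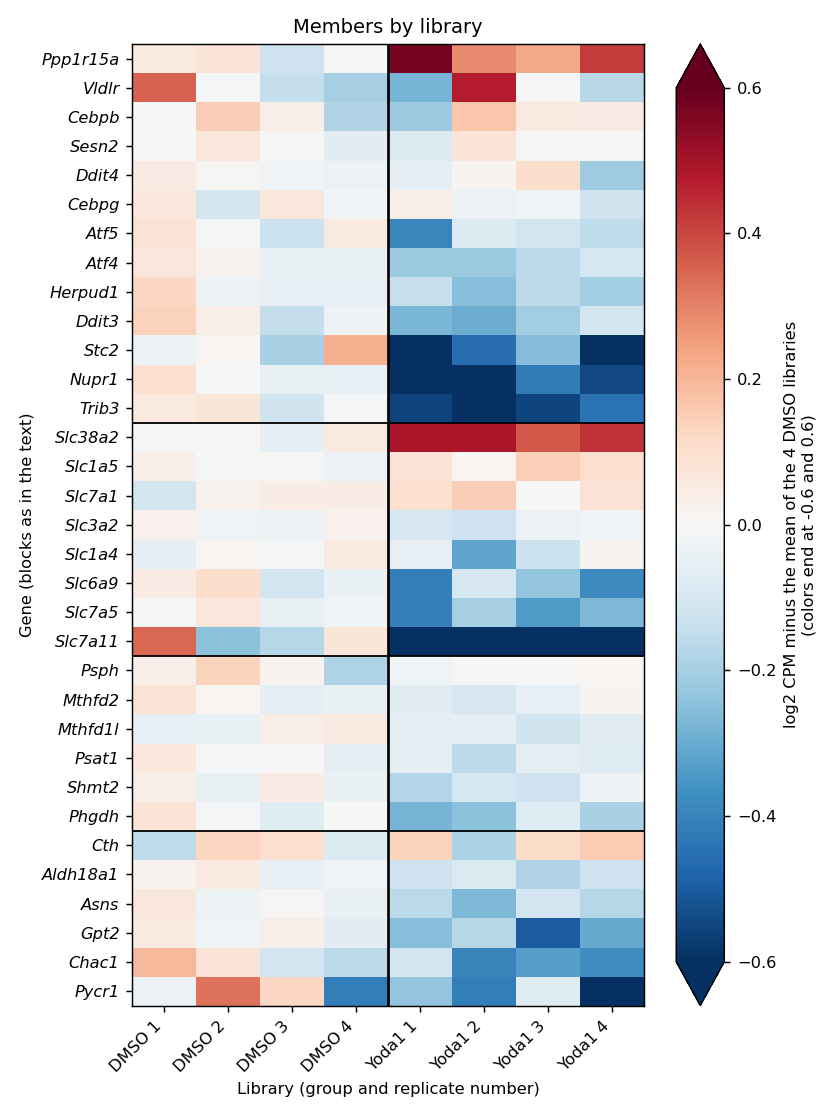
Log2 CPM of each tested member in each library, minus the mean of the 4 DMSO libraries, with members in rows by role and the 8 libraries in columns. The rows of Stc2, Nupr1, Trib3, Slc7a5 and Slc7a11 are blue in all 4 Yoda1 columns, and those of Ppp1r15a and Slc38a2 are red in all 4.

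Grouped by the promoter letters shown above, the 9 tested members with TGATGNAA held 5 that fell (Slc7a11, Trib3, Nupr1, Herpud1 and Asns), none that rose and 4 that did not pass the test. The 21 tested members whose promoter window lacks the letters held 5 that fell, 2 that rose and 14 that did not pass. Slc7a5, which fell, and Slc1a5 and Cth, which did not pass, had no promoter in the table and are in neither group. Over all tested genes with a promoter in the table, 10.6% of the 264 with the letters fell and 11.4% rose, beside 4.7% and 6.02% of the 9055 without them. The difference between these groups of genes was not tested. Slc38a2 and Ppp1r15a, the genes that rose, were in the second group, as was Atf4. The longer form TGATGNAAT was found in the promoters of Nupr1 and Pycr1 only among the members, which is 5.41% of the member promoters, beside 0.965% of all promoters in the table.

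Of 17 tested genes for the eIF2 kinases, eIF2 and its exchange factor eIF2B, edgeR's test called 0 at the adjusted threshold, 3 had an unadjusted p under 0.05 (Eif2ak3, Eif2ak4 and Eif2b1), and DESeq2 and limma-voom called 0. Over all genes tested 10.9% were called in either direction, so that a count of 0 in a list of this size sets it little apart. Their median log2 fold change was 0.011, with a range from -0.12 to 0.14. Eif2ak3, which encodes PERK, had 64.7 ± 2.77 CPM with DMSO and 69.6 ± 1.89 CPM with Yoda1 (SD, n = 4 each), and Eif2ak4, which encodes GCN2, had 31.0 ± 1.79 and 33.7 ± 0.784 CPM. These are mRNA levels, and the phosphorylation by which the kinases act was not measured here.

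The IRE1 and ATF6 arms of the unfolded protein response are the other branches that sense misfolded protein in the endoplasmic reticulum. Their 27 tested genes also held 0 calls in edgeR's test, beside 10.9% called over all genes. An unadjusted p under 0.05 was found for 4 (Edem1, Ern1, Hspa5 and Syvn1), limma-voom called 0, DESeq2 called 1 (Hspa5), and edgeR with upper-quartile factors called 1 (Edem1). Hspa5, the chaperone BiP, had 1048 ± 16.6 CPM with DMSO and 1109 ± 24.8 CPM with Yoda1, with a log2 fold change of 0.082 and an edgeR adjusted p of 0.116. Xbp1, the target of IRE1, had a log2 fold change of -0.033. These are mRNA counts per gene, and the activity of IRE1 and ATF6 was not measured here. The median of these 27 genes was 0.011. They do not include Herpud1, which fell and was counted among the members.

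Further genes of the same pathways that are not on the member list moved in both directions, and their counts are to be read beside the 6.04% of all genes that rose and the 4.84% that fell. Of 11 tested other targets of ATF4, 3 fell and 1 rose: Pck2, the mitochondrial phosphoenolpyruvate carboxykinase, at -0.25, Eif4ebp1, the translation repressor 4E-BP1, at -0.24, Bcat1, the cytosolic branched-chain aminotransferase, at -0.21, and Ero1l, the oxidase of the endoplasmic reticulum, at 0.11 on the log2 scale. The libraries of Eif4ebp1 overlapped between groups although its adjusted p was 0.0403 in edgeR's test. Of 17 other amino acid transporters tested, Slc7a8, the LAT2 carrier, fell by 0.31 and Slc43a2, the LAT4 carrier, fell by 0.21 on the log2 scale, while Slc7a6, a light chain that also pairs with CD98, rose by 0.19. Of 17 other folate and glycine genes tested, Sfxn1, the mitochondrial serine carrier, at -0.21, and Gart, an enzyme of purine synthesis, at -0.16, fell and none rose. Of 18 other genes of proline, methionine and glutathione metabolism tested, 3 rose and none fell: Got1, the cytosolic aspartate aminotransferase, at 0.25, Ahcyl1, a relative of the S-adenosylhomocysteine hydrolase, at 0.15, and Gclc, the catalytic subunit of the rate-limiting step of glutathione synthesis, at 0.14. The calls of Ero1l and Gclc were lost with library size only, with upper-quartile factors and with the replicate block, and that of Eif4ebp1 with DESeq2. Calls of a fall were gained by Gsr with library size only and by Gsr and Mat2a with upper-quartile factors, so that in the last list 2 rose and 2 fell with the latter, and by Atic with both scalings and Mtrr with upper-quartile factors in the folate list. In the transporter list limma-voom also called Slc7a4, a gene at 0.792 CPM with DMSO and 0.379 CPM with Yoda1 on average. The medians of these 4 lists lay between -0.064 and -0.012.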

How the data were processed

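Poly(A)-selected RNA of 8 libraries, 4 Yoda1 and 4 DMSO, was sequenced on an Illumina NovaSeq after directional library preparation. The authors deposited raw, whole-number read counts for 23183 gene symbols per library, without normalization. For read processing the study lists FastQC, the FASTX Trimmer, BBMap and also Cufflinks, and the submitters' processing notes name TopHat and mm10. The tool that counted, all versions, the annotation and the strand setting are not given in the sources used here.

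The filter on low counts was filterByExpr (minimum count 10 and 15 in total). Scaling was by TMM, and both groups were compared with edgeR 4.0.16 (R 4.3.3), using its robust quasi-likelihood test and adjusting p-values after Benjamini and Hochberg across 12239 genes, at 0.05. CPM are counts over the TMM-scaled library total. Over the total before TMM scaling, 1 count equals 0.0512 to 0.0804 CPM. The SE is the absolute log2 fold change divided by the root of F, and intervals are 95%. Intervals cover counting error and the spread between libraries. Libraries of a group differed by more than sampling noise (chi-square per gene 2.04 to 6.94), so all were kept. Alternatives were DESeq2 1.42.0, limma-voom (limma 3.58.1), other scalings and filters, a block on the replicate number, and leaving out single libraries. The scripts were first tested on simulated data.

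Exon lengths and overlaps came from GENCODE M21 (GRCm38), and near-identical copies (at least 95% over at least 200 bases) from BLAST 2.17.0. Promoter sequences are RefSeq's, GRCm38.p6, and those of Slc7a5, Slc1a5 and Cth were not used here.

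Every listed member is named. From each further list, genes past the threshold are named, at most the 3 largest rises and the 3 largest falls. Genes named beside a count of 0 (Eif2ak3, Eif2ak4, Eif2b1, Edem1, Ern1, Hspa5, Syvn1, Xbp1) were added after their values were seen. So were the tubulin genes and Gsr, Mat2a, Atic, Mtrr and Slc7a4. The members and all lists were chosen with earlier results of these data known.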

Additional observations from a re-analysis of the deposited data

Results flagged for a closer look

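In the 66 groups of 4 libraries formed by the 33 tested members, 3 had an end value whose gap to its neighbor exceeded Dixon's 95% critical value for 4 values, where chance gives about 3.3. DMSO replicate 1 was high for Herpud1, with 101.8 CPM against 91.46 in the next library. Yoda1 replicate 3 was low for Mthfd1l, with 71.46 CPM against 74.43 in the next. Yoda1 replicate 2 was low for Cth, with 1.096 CPM against 1.35 in the next, at 16 to 27 counts per library.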

How the results depend on the processing

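Across 15 alternatives, 7 other settings and 8 left-out libraries, 12 of the 13 calls were kept in every one, and Aldh18a1 was lost in 6, with an adjusted p of 0.0552 with the replicate block beside the values given above. Of the 20 members without a call, 5 gained one in some alternative: Ddit3, Psat1, Slc6a9, Shmt2 and Chac1. The members counted as higher were 2 in every alternative, and those counted as lower were 10 with DESeq2 and with the replicate block, 14 with library size only, 16 with upper-quartile factors, 11 with each of the other settings and 10 to 12 with a library left out.

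Same-numbered libraries correlated at -0.0277 to 0.0711 in their deviations from the group mean, beside -0.125 to 0.0768 for libraries of unlike number. Only for replicate 2 was the same number the best match both ways. Such low correlations cannot show whether the libraries were prepared in pairs. With the number as a block 966 genes were called, beside 1331 without it. The genes called were 997 with DESeq2 and 893 to 1484 with a library left out. The genes called as lower numbered 592 in all, 367 without DMSO replicate 2 and 374 without Yoda1 replicate 4.

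Of 495 member values over the alternatives, 462 kept direction and side of the threshold, 6 lost a call, 11 gained one and 16 changed sign, each of the 16 for a member near 0. Sesn2 gave 0.0018 with DESeq2 and 0.00019 with no filter, Cebpb gave -0.0050 with library size only and -0.015 with upper-quartile factors, and Vldlr gave -0.0069 with upper-quartile factors. With a library left out the range was -0.081 to 0.023 for Ddit4, -0.029 to 0.022 for Sesn2, -0.036 to 0.080 for Cebpb, -0.16 to 0.15 for Vldlr, -0.065 to 0.035 for Psph and -0.0071 to 0.12 for Cth. The cause was not tested. The share of promoters with the element was 0.965% for the longer letters, beside 3.97%. Depth limits Slc7a11, Pycr1, Vldlr, Cth and Cbs, whose libraries hold under 100 counts each.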
